A study of Saccharomyces cerevisiae with 12 samples.

Results

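The effect of the tup1(S649F) point mutation was measured in MATalpha cells of Saccharomyces cerevisiae. Of the 12 RNA libraries of the series, the 6 from MATalpha strains were compared, 3 from tup1(S649F) and 3 from wild type (WT), over all genes of the table. The WT strain was DY3420 (MATalpha) and the mutant was DY19306 (MATalpha tup1(S649F)). Both are W303 strains and share the auxotrophic alleles ade2-1, his3-11,15, leu2-3 with leu2-112, trp1-1 and ura3-1 and the resistance allele can1-100. Each group is 1 strain, so a further difference between these strains cannot be told apart from the mutation. Cells were in log phase at 30 °C, in YPA medium with 2% dextrose, and were taken at an OD660 between 0.6 and 0.8. Whether the 3 replicates of a strain came from separate cultures is not stated in the labels, and p-values then measure only the spread between these samples, which may be technical.

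Tup1 and Cyc8 form a corepressor that does not bind DNA itself. DNA-binding proteins recruit it to promoters, for example alpha2 with Mcm1 at a-specific genes, Mig1 and Nrg1 at glucose-repressed genes, Rox1 at hypoxic genes and Rfx1 at genes of the DNA damage response. In MATalpha cells, alpha1 turns on the alpha-specific genes and alpha2 keeps the a-specific genes off. The serine that S649F replaces lies in the C-terminal part of Tup1, which consists of WD40 repeats, the part that contacts several of the DNA-binding partners.

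The sequences that the results below turn on are taken from RefSeq, build R64, with the letters that matter in capitals. The first is the reference codon that S649F replaces in TUP1, a gene of 713 codons (chrIII:260491-260523, minus strand), which encodes serine. The next 3 are stretches upstream of a-specific genes that start with a match to CATGTANTT, the core of the alpha2 site, on the minus strand of chrVI:82348-82381 (STE2), chrXI:46474-46507 (STE6) and chrIX:322074-322107 (BAR1). The others hold the pheromone response element TGAAACA, to which the activator Ste12 binds, at chrIII:71616-71635 and chrIII:71643-71662 (FUS1, plus strand) and chrXIV:110745-110764 (PRM1, minus strand).
TUP1 codon: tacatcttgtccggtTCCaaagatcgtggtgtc
STE2: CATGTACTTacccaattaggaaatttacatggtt
STE6: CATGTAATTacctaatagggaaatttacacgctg
BAR1: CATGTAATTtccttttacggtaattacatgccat
FUS1, distal element: TGAAACAaacatgaaacgtc
FUS1, proximal element: TGAAACAaataacgtaattc
PRM1: TGAAACAgtattgaaacagt

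Library totals ran from 5657714 to 9300353 counts. Component 1 of a principal component analysis held 93.9% of the variance and separated the tup1 from the WT libraries. The tup1 libraries differed more among themselves than the WT libraries did, with a chi-square per degree of freedom of 7.4 to 12.2 against 1.4 to 2.68 between pairs of replicates. Mating type labels were checked with marker genes. STE3, which encodes the receptor for a-factor, stood between 459 and 922 CPM (reads of the gene per megaread of TMM-scaled library size) in the 6 libraries, and MF(ALPHA)1, a gene for alpha-factor, between 803 and 1287 CPM. HMRA1, whose sequence MATa cells also carry and express at MAT, had 0 counts in each of the 6 MATalpha libraries, where 0 allows up to 3 counts a library (counting error only). In the MATa libraries of the series it stood at 8.60 to 10.9 CPM in WT and 7.85 to 11.99 CPM in tup1. The markers thus matched the MATalpha label, except for the a-specific genes described below. The alpha genes of MAT and HML are near-identical copies and had at most 8 counts in a library, so they were not tested. The mutation changes a single codon and does not remove the mRNA. TUP1 (YCR084C, chromosome III 260311 to 262452) was at 449, 435 and 459 CPM in WT and 490.0, 509.9 and 439.8 CPM in tup1, a difference of 0.10 on the log2 scale that missed the threshold (adjusted p = 0.203) but passed it without tup1 replicate 3 (adjusted p = 0.0334). Its level therefore does not check the label.

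Over the genome, 5621 genes passed the filter on low counts. Of these 1845 were higher in tup1 (32.8%) and 1795 lower (31.9%), so that 64.8% were called at an adjusted p under 0.05. Counts of called members in the classes below stand against these shares. The sizes were unequal. At least 2-fold differences were higher in 715 genes (12.7%) and lower in 27 (0.48%), and 8-fold differences were higher in 168 and lower in 2. By the fitted change 24 genes were at least 100-fold higher, but some of them had almost no counts in WT. For HXT13, PAU20, ASG7, tI(AAU)I2, tA(AGC)P and PRM6 among them, counting error also allows less than 100-fold (lower bounds of 30.8 to 91.7). Such bounds were worked out only for named or mating genes with at most 3 counts in a group. Others of the 24 may allow less than 100-fold too. The genes called higher by at least 2-fold together took 4.48 ± 0.0569% of the counts in WT and 13.9 ± 0.783% in tup1 (SD, n = 3). The median log2 fold change of all genes was −0.03. With upper-quartile scaling it was −0.18, and 37.4% of the calls were higher in place of 50.7% (1497 higher and 2504 lower, with 639 and 60 at least 2-fold). Log2 fold changes are given as fitted, without a shift by that median.

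**Figure D1:**
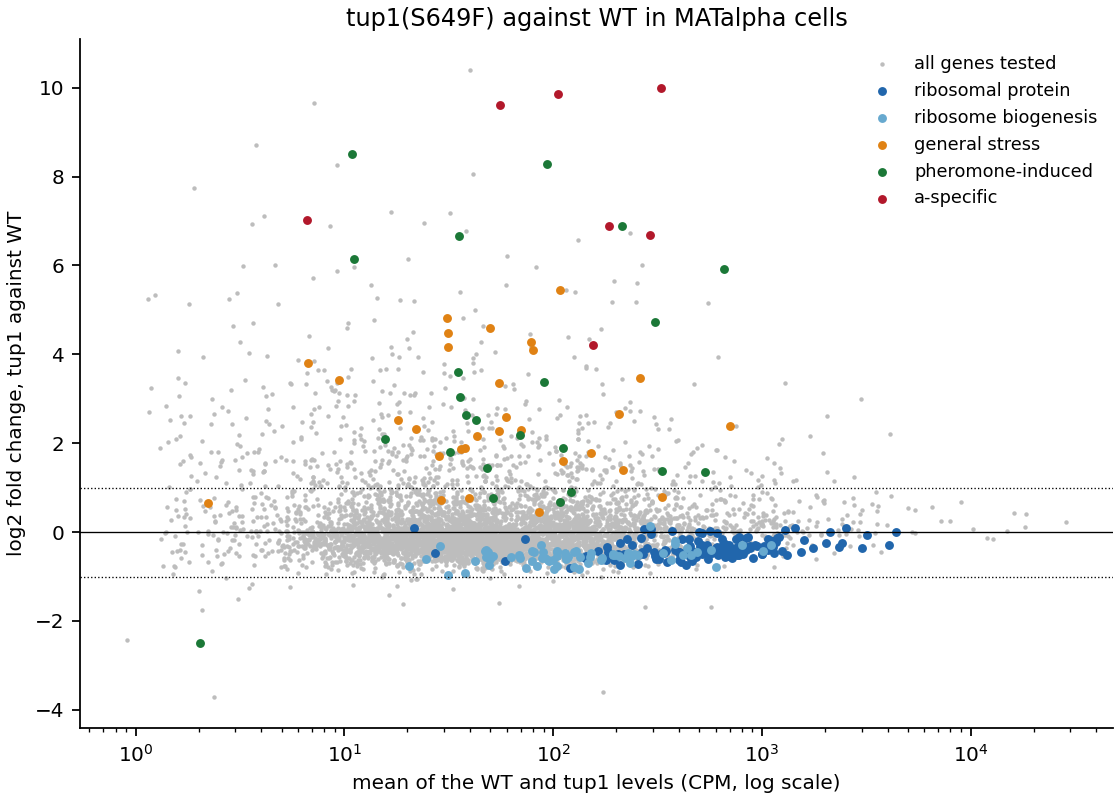
Log2 fold change of tup1(S649F) against WT in MATalpha (vertical axis) against the mean of the WT and tup1 levels in CPM (horizontal log axis), 1 point a gene for the 5621 genes tested, with 5 classes coloured and dotted lines at 2-fold. The 7 a-specific genes lie between 4.20 and 10.00, while the 138 ribosomal protein and 72 ribosome biogenesis genes lie in a band with medians of −0.41 and −0.53.

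Genes of the other mating type were among those that rose most in MATalpha cells. All 7 a-specific genes rose, with a median log2 fold change of 7.02 against −0.03 for all genes tested. Their summed level was 25.2 to 26.2 CPM in the WT libraries and 1819 to 2692 CPM in the tup1 libraries. MFA1, MFA2, AGA2 and ASG7 were near 0 in WT and passed the filter only through the tup1 libraries, so they could only rise. STE2 (YFL026W, chromosome VI 82580 to 83875), the receptor for alpha-factor, was at 5.94, 5.34 and 5.19 CPM in WT replicates 1 to 3 and at 702, 472 and 554 CPM in tup1 replicates 1 to 3. The groups stood far apart, with the tup1 value highest in replicate 1 and lowest in replicate 2, and the change was 6.695 ± 0.20 SE on the log2 scale (adjusted p = 2.1e-08). BAR1 (YIL015W, chromosome IX 322342 to 324105), the secreted protease that degrades alpha-factor, was at 3.27, 2.95 and 2.96 CPM in WT and 439.6, 289 and 373 CPM in tup1 (6.88 ± 0.24, adjusted p = 2.26e-07). STE6 (YKL209C, chromosome XI 42423 to 46295), the exporter of a-factor, was at 14.9, 16.4 and 16.9 CPM in WT, and at 324, 260.2 and 302 CPM in tup1 (4.20 ± 0.09, adjusted p = 6.12e-18).

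The a-factor genes and the a-cell agglutinin went from almost no counts to high levels. MFA2 was at 0.693, 0.421 and 0.741 CPM in WT and 805, 529 and 639 CPM in tup1 (9.997 ± 0.30, adjusted p = 6.37e-08). AGA2, the binding subunit of the a-agglutinin, was at 0.198, 0 and 0.445 CPM and 265, 168 and 201 CPM (9.86 ± 0.45, adjusted p = 7.43e-06). MFA1 had 3 counts over the WT libraries and 2019 over the tup1 libraries, a ratio of 875 (exact 95% interval 299 to 4249, counting error only). ASG7, a small regulator of pheromone signalling, had 2 and 242 counts, a ratio of 157 (43.1 to 1307). In all 4 genes the lowest tup1 library stood far above the highest WT library. In bulk RNA, more cells that express a gene and more RNA per cell cannot be told apart. Among the promoters of the 7 genes, read from 250 bases before to 50 after the start codon, 3 held CATGTANTT on either strand, those printed above, against 1.2% of 5765 promoters. The match is a description of letters and not of binding. Over all genes tested, 12.3% of those with this motif and 12.8% of those without it were at least 2-fold higher.

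The alpha-specific genes, active in WT MATalpha cells, were also higher in part. Of 5 listed, 3 rose and 0 fell (median 0.74). SAG1, the agglutinin of MATalpha cells, was at 628, 642 and 734 CPM in WT and 6352, 4206 and 5367 CPM in tup1 (2.99 ± 0.15, adjusted p = 1.11e-07). The alpha-factor gene MF(ALPHA)2 was at 653, 721 and 752 CPM and 2093, 1399 and 1811 CPM (1.32 ± 0.14, adjusted p = 3.82e-05), and STE3 at 459, 481 and 499 CPM and 922, 706 and 770.0 CPM (0.74 ± 0.08, adjusted p = 4.48e-07). For these 3 genes every tup1 library was above every WT library. The major alpha-factor gene MF(ALPHA)1 was at 938, 931 and 938 CPM in WT and 1287, 803 and 1076 CPM in tup1, with overlapping groups (0.17 ± 0.16, adjusted p = 0.379). It was called higher only without tup1 replicate 2 (adjusted p = 0.000326). AFB1, which encodes the barrier protein that binds a-factor, was not called (0.06 ± 0.08, adjusted p = 0.542).

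**Figure D2:**
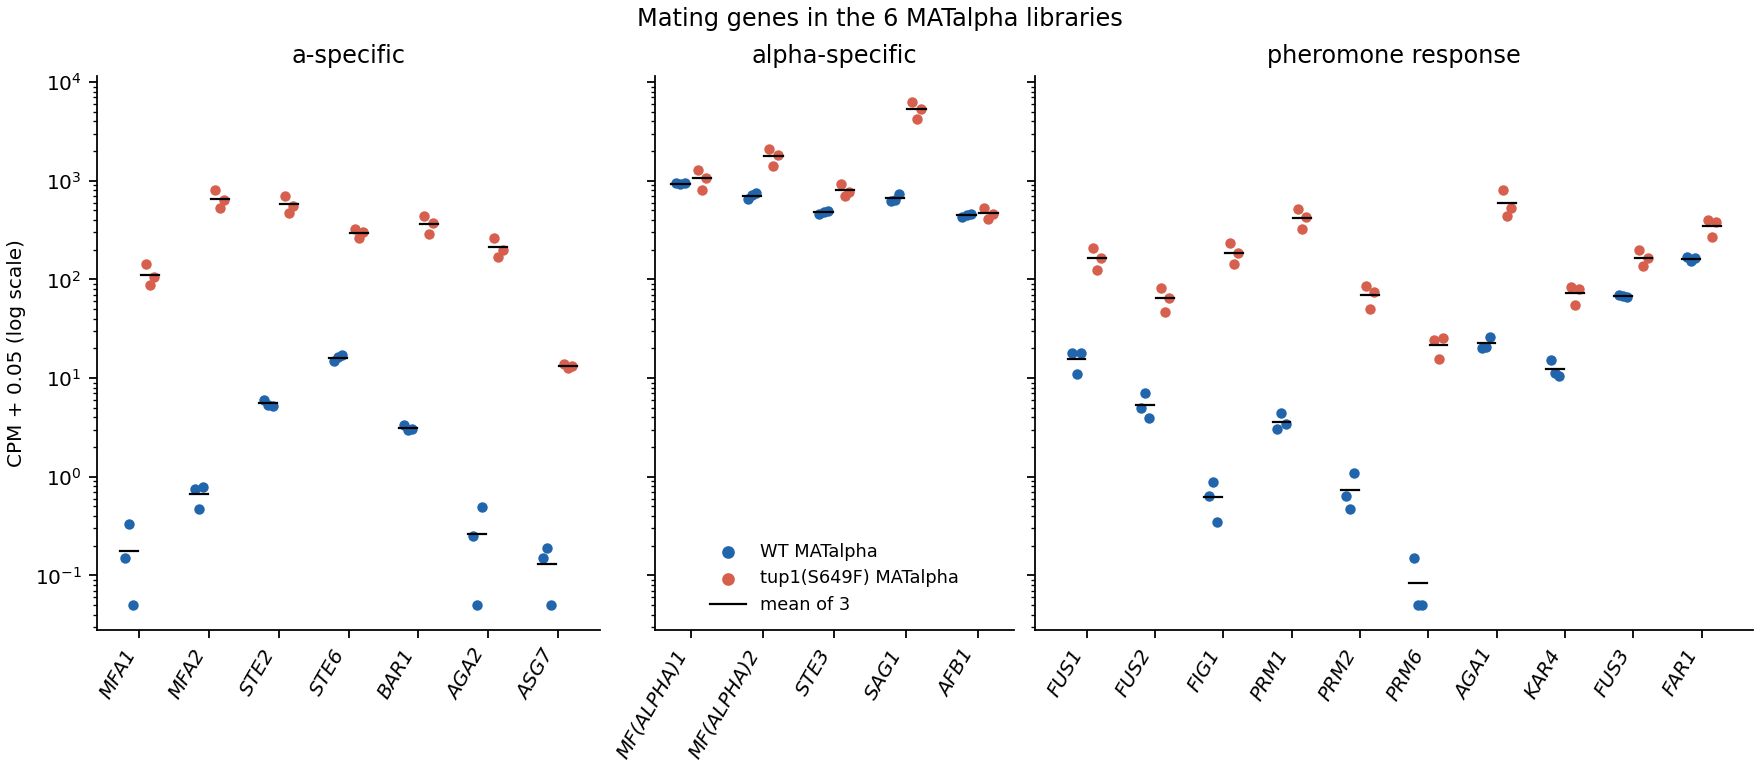
Levels in the 3 WT (blue) and 3 tup1(S649F) (red) MATalpha libraries for 7 a-specific, 5 alpha-specific and 10 pheromone response genes, as CPM + 0.05 on a log axis, with bars at the mean of 3. The groups do not overlap in the left and right panels, and MF(ALPHA)1 and AFB1 overlap in the middle panel.

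Genes that pheromone turns on in haploid cells rose nearly throughout. Of 23 pheromone-induced genes 22 were higher and 1 lower, with a median of 2.53, and 19 rose at least 2-fold. Members near 0 in WT, such as FIG1, PRM2, PRM3 and PRM6, passed the filter only through the tup1 libraries, so they could only rise. FIG1, a membrane protein of the mating response, was at 0.594, 0.843 and 0.296 CPM in WT and 233, 144 and 183 CPM in tup1 (8.27 ± 0.38, adjusted p = 4.89e-06). PRM1, which acts in plasma membrane fusion, was at 2.97, 4.35 and 3.41 CPM and 520.2, 322 and 424 CPM (6.90 ± 0.30, adjusted p = 8.35e-06). FUS1 (YCL027W, chromosome III 71803 to 73341), a membrane protein that acts in cell fusion, was at 18.1, 10.9 and 17.8 CPM and 209, 123 and 164 CPM (3.38 ± 0.31, adjusted p = 0.000448). Each of these genes was highest in tup1 replicate 1 and lowest in replicate 2, and no tup1 value reached into the WT range. PRM6, a potassium channel, had 1 count over the WT libraries and 395 over the tup1 libraries, a ratio of 514 (91.7 to 20350).

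The other members of this class ranged from PRM2 (6.67) and PRM3 (6.14) down to the Cdc42 effector gene GIC2 (0.67). Between these lay the cell wall adhesin gene FIG2 (5.93), the agglutinin subunit gene AGA1 (4.73) and the fusion gene FUS2 (3.601). PRM3 is needed for nuclear fusion. The karyogamy genes KAR4 (2.53), KAR5 (2.10) and CIK1 (1.44) rose, as did the genes of feedback in the pathway, SST2 (1.38), which speeds up the shut-off of the G protein, and MSG5 (0.77), a phosphatase of its MAP kinases. PGU1, a pectinase of filamentous growth, was the exception, at 3.17, 3.37 and 4.0 CPM in WT and 0.367, 1.17 and 0.163 CPM in tup1 (−2.51 ± 0.42, adjusted p = 3.64e-05). The class took 0.0976 ± 0.00201% of the counts in WT. In tup1 replicates 1 to 3 it took 0.607%, 0.37% and 0.455%, the same order as for the a-specific genes (0.259%, 0.165% and 0.204%). Of the 23 promoters 12 (52.2%) held TGAAACA, against 7.3% of all promoters. Over all genes tested, 14.7% of those with this motif and 12.6% of those without it were at least 2-fold higher.

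The signalling pathway that connects receptor and response had a median change of 0.16. Of 18 genes 6 rose, near the 32.8% of all genes called higher, and 3 fell, or 4 rose and 6 fell with upper-quartile scaling. The MAP kinase FUS3 was at 69.7, 67.4 and 65.8 CPM in WT and 197, 136 and 165 CPM in tup1 (1.29 ± 0.12, adjusted p = 2.28e-06). The cell cycle inhibitor FAR1 was at 168, 155 and 163 CPM and 399, 268 and 384 CPM (1.11 ± 0.15, adjusted p = 0.000537). The inhibitor of Ste12 encoded by DIG2 rose (0.83) and that encoded by DIG1 fell (−0.54), as did the kinase STE20 (−0.49). STE12 itself (0.15, adjusted p = 0.112), the G protein subunit STE4 (−0.05, adjusted p = 0.56) and the scaffold STE5 (0.004, adjusted p = 0.963) did not pass, though STE12 did without tup1 replicate 2 (adjusted p = 0.0376). STE4 passed as lower under upper-quartile scaling (adjusted p = 0.0222). Of 11 haploid-specific genes, which a diploid keeps off, 5 rose and 0 fell (median 0.27), or 3 rose and 2 fell with upper-quartile scaling (median 0.13). This list shares GPA1, STE4, STE18, STE5, FUS3, STE12 and FAR1 with the signalling genes, so the rises of FUS3, FAR1 and GPA1 are counted in both. RME1, a repressor of entry into meiosis, rose (0.87 ± 0.07, adjusted p = 1.36e-09), while HO, the endonuclease of mating type switching, was at 72.1, 62.9 and 67.6 CPM and 53.9, 73.2 and 65.8 CPM and was not called (−0.07, adjusted p = 0.554). Upper-quartile scaling put HO among the lower genes (adjusted p = 0.0488).

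Genes of the ribonucleotide reductase and DNA damage response, where Rfx1 recruits the corepressor, rose together. Of 11 listed 10 rose and 0 fell, with a median of 0.66, but 4 members moved far more than the others. HUG1, an inhibitor of the reductase, was at 2.38, 3.09 and 2.81 CPM in WT and 259.8, 252 and 270.3 CPM in tup1 (6.57 ± 0.10, adjusted p = 3.5e-20). RNR3 (YIL066C, chromosome IX 238099 to 240708), the damage-inducible large subunit, was at 13.2, 14.9 and 11.7 CPM and 509, 465 and 480.0 CPM (5.19 ± 0.09, adjusted p = 7.28e-20). The small subunits RNR2 (2.62 ± 0.08) and RNR4 (1.99 ± 0.07) followed, and all 4 had tup1 values that lay close together and far above WT. The main large subunit RNR1 (0.58), the inhibitor SML1 (0.66), the localisation factor DIF1 (0.28), the photolyase PHR1 (0.52), FMP52 (0.38) and RFX1 itself (0.85) rose by less than 2-fold. DIF1 lost its call under upper-quartile scaling (adjusted p = 0.166), without WT replicate 2 (0.0646) or without tup1 replicate 2 (0.0504). The nuclease DIN7 was not called (−0.16, adjusted p = 0.351). None of the 11 promoter windows held GTTGCCNNG, the core of the X box to which Rfx1 binds, against 1.41% of all promoters. The windows reach only 250 bases before the start. A site further upstream or with other letters would be missed, so this does not show that X boxes are absent.

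Genes of growth without oxygen were strongly higher in cultures for which the labels name no lack of oxygen. DAN1 (YJR150C, chromosome X 708811 to 709707), a cell wall mannoprotein made in anaerobic cells, had 1 count over the 3 WT libraries and 1484 over the 3 tup1 libraries, the largest fitted change of the genome (ratio 1930, 345.9 to 76300). The DAN and TIR mannoprotein genes rose in 8 of 8 cases (median 4.15). TIR1 was at 8.31, 9.27 and 13.5 CPM in WT and 487, 508 and 477 CPM in tup1 (5.597 ± 0.11, adjusted p = 8.83e-18), TIR3 rose by 4.39 and TIR2 by 3.91, and TIR4 by 0.88, the smallest change of the class. All 11 seripauperin genes that passed the filter rose as well (median 2.71), a family of near-identical genes near telomeres whose reads may be split between copies. PAU23 and PAU24 are counted here and among the DAN and TIR genes. The other 13 listed had too few counts for a test. DAN1, PAU5, PAU13, PAU20 and PAU24 were near 0 in WT and passed the filter only through the tup1 libraries, so they could only rise.

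Among 16 further hypoxic genes, many of them targets of Rox1, 13 rose and 1 fell (median 1.18). ANB1 (YJR047C, chromosome X 524908 to 525381), the hypoxic form of translation factor eIF5A, was at 4.55, 7.30 and 6.22 CPM and 229, 257 and 260.5 CPM (5.40 ± 0.11, adjusted p = 2.27e-18). The sterol importers PDR11 (3.68) and AUS1 (1.80), the hypoxic cytochrome c gene CYC7 (2.71), the cytochrome oxidase subunit COX5B (1.41), the heme synthesis gene HEM13 (1.46) and the regulators UPC2 (0.49) and ROX1 (0.35) rose. OSM1, a fumarate reductase, fell (−0.23, adjusted p = 0.0249) and lost that call in DESeq2 (adjusted p = 0.1) and without WT replicate 1 (0.122), WT replicate 2 (0.068), tup1 replicate 2 (0.0692) or tup1 replicate 3 (0.0742). The fatty acid desaturase OLE1 (−0.09, adjusted p = 0.381) and ERG3 (0.07, adjusted p = 0.438) of sterol synthesis were not called, while OLE1 was called lower without tup1 replicate 2 (adjusted p = 0.00787) and under upper-quartile scaling (0.0153). ROX1 lost its call under upper-quartile scaling (adjusted p = 0.0515). ATTGTTC, the core of the Rox1 site, stood in 7 of the 16 promoters (43.8%), against 7.75% of all. Over all genes tested, 14.5% of those with this motif and 12.6% of those without it were at least 2-fold higher.

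Cell surface genes followed. Of 6 flocculin genes, whose products make cells stick to each other and to surfaces, 5 rose and 1 fell (median 2.85). FLO1 was at 7.33, 7.02 and 8.45 CPM in WT and 294, 475 and 378 CPM in tup1 (5.66 ± 0.26), and FLO9 at 4.65, 3.51 and 4.74 CPM and 428, 501 and 462 CPM (6.74 ± 0.11). FLO1, FLO5 and FLO9 are near-identical, so the level of each is uncertain. FLO11, of invasive growth, was at 5.84, 8.99 and 6.82 CPM and 37.6, 63.4 and 54.8 CPM (2.88 ± 0.24, adjusted p = 1.31e-05), and FLO10 rose by 2.82. FLO8, which encodes an activator of flocculins and not a flocculin, was the member that fell (−0.41 ± 0.10, adjusted p = 0.00183).

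Of 25 cell wall genes 22 rose and 1 fell (median 1.17). GSC2, a glucan synthase subunit used in stress and sporulation, was at 218, 234 and 239 CPM and 2559, 2324 and 2188 CPM (3.36 ± 0.08, adjusted p = 8.5e-18). SED1, a major cell wall mannoprotein, was at 1419, 1469 and 1509 CPM and 7385, 6671 and 6229 CPM (2.21 ± 0.08), TIP1 rose by 3.33 and the yapsin protease YPS3 by 2.73. UTR2, which cross-links chitin to glucan, fell, from 839, 876 and 908 CPM to 231, 316 and 268 CPM (−1.68 ± 0.09, adjusted p = 4.8e-11). Of 11 COS genes near telomeres, whose reads may be split between copies, 8 rose and 0 fell (median 0.47).

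Genes of sugar uptake and use rose in medium with 2% dextrose, among them genes that glucose normally keeps low. Of 19 genes tested for hexose transporters, glucose sensors and their regulators, and hexose kinases, 17 rose and 0 fell (median 2.09), or 2 fell with upper-quartile scaling. HXT15 had 0 counts in the 3 WT libraries and 262 in the 3 tup1 libraries, at least 114-fold higher (floor of 3 counts for the WT group). HXT13 had 1 and 134 counts, a ratio of 174 (30.8 to 6935). Both genes passed the filter only through the tup1 libraries. HXT10 (5.55) and HXT8 (4.28) rose as well. HXT13, HXT15, HXT16 and HXT17 are near-identical, so the level of each is uncertain. Of 11 sucrose and maltose genes 10 rose and 0 fell (median 2.32). The invertase SUC2 (YIL162W, chromosome IX 37385 to 38983) was at 121, 118 and 118 CPM in WT and 539, 652 and 598 CPM in tup1 (2.32 ± 0.08, adjusted p = 9.19e-16). The maltase MAL12, which shares reads with MAL32, was at 0.495, 0.140 and 0.148 CPM and 81.2, 81.4 and 85.4 CPM (8.06 ± 0.19, adjusted p = 5.68e-18), and the isomaltases IMA2 (4.997) and IMA5 (3.66) rose. MAL12 passed the filter only through the tup1 libraries, and its error is understated at such low WT counts.

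The galactose genes rose in 6 of 7 cases (median 1.82), but to low levels. GAL2 and GAL7 passed the filter only through the tup1 libraries, so they could only rise. GAL7, a transferase of the Leloir pathway, went from 0.495, 0.562 and 0.593 CPM to 2.57, 1.90 and 2.44 CPM (2.04 ± 0.40, adjusted p = 0.00019), GAL2, the permease, rose by 2.52, and the activator GAL4 by 2.14, though GAL4 overlaps a noncoding gene on the other strand and the strand setting of the counting is unknown here. Gluconeogenesis and the use of other carbon sources rose in 18 of 20 cases and fell in 0 (median 2.19). PCK1, the committing enzyme of gluconeogenesis, was at 5.34, 3.93 and 5.33 CPM in WT and 89.3, 52.5 and 98.8 CPM in tup1 (4.01 ± 0.37, adjusted p = 0.000335), with replicate 2 the lowest of the 3. The lactate permease JEN1 (3.601), the alcohol dehydrogenase ADH2 (3.18), the phosphatase FBP1 (2.42) and the activators ADR1 (2.71), CAT8 (1.71) and SIP4 (2.88) rose. The glyoxylate genes MLS1 (3.08, adjusted p = 0.0635) and ICL1 (1.07, adjusted p = 0.055) were not called, but both were without tup1 replicate 2 (adjusted p = 0.00663 and 7.17e-05) and with DESeq2 (0.00469 and 0.00826). They were also called in the fit of all 12 libraries (adjusted p = 0.00531 and 0.00193), and ICL1 without tup1 replicate 3 (0.00297). ICL1 was at 30.1, 19.3 and 47.9 CPM in the tup1 replicates, against 15.4, 14.04 and 16.4 CPM in WT. Of 15 fatty acid oxidation genes 10 rose and 1 fell (median 0.65), with the thiolase POT1 (7.20) and the oxidase POX1 (3.10) in front and the peroxisomal dehydrogenase IDP3 (−0.55) the member that fell, a call lost without WT replicate 1 (adjusted p = 0.0529).

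In glycolysis itself 12 of 18 genes rose and 0 fell (median 0.41), or 3 fell with upper-quartile scaling, with the isoforms that are minor in glucose in front. TDH1, an isoform of glyceraldehyde-3-phosphate dehydrogenase, was at 26.5, 32.02 and 31.4 CPM and 1134, 1115 and 953 CPM (5.16 ± 0.10, adjusted p = 4.7e-19). PDC6 (3.35), ENO1 (2.15) and PYK2 (2.09) also rose more than 4-fold. As a share of all counts the class was at 11.6 ± 0.211% in WT and 12.02 ± 0.692% in tup1 (SD, n = 3). Storage carbohydrate genes rose in 18 of 18 cases (median 1.63). GAC1, a targeting subunit for the phosphatase that activates glycogen synthase, was at 4.45, 5.76 and 5.48 CPM and 236, 224 and 213 CPM (5.44 ± 0.10, adjusted p = 1.67e-19), followed by glycogen phosphorylase GPH1 (3.95), the branching enzyme GLC3 (3.11) and the debranching enzyme GDB1 (2.43).

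**Figure D3:**
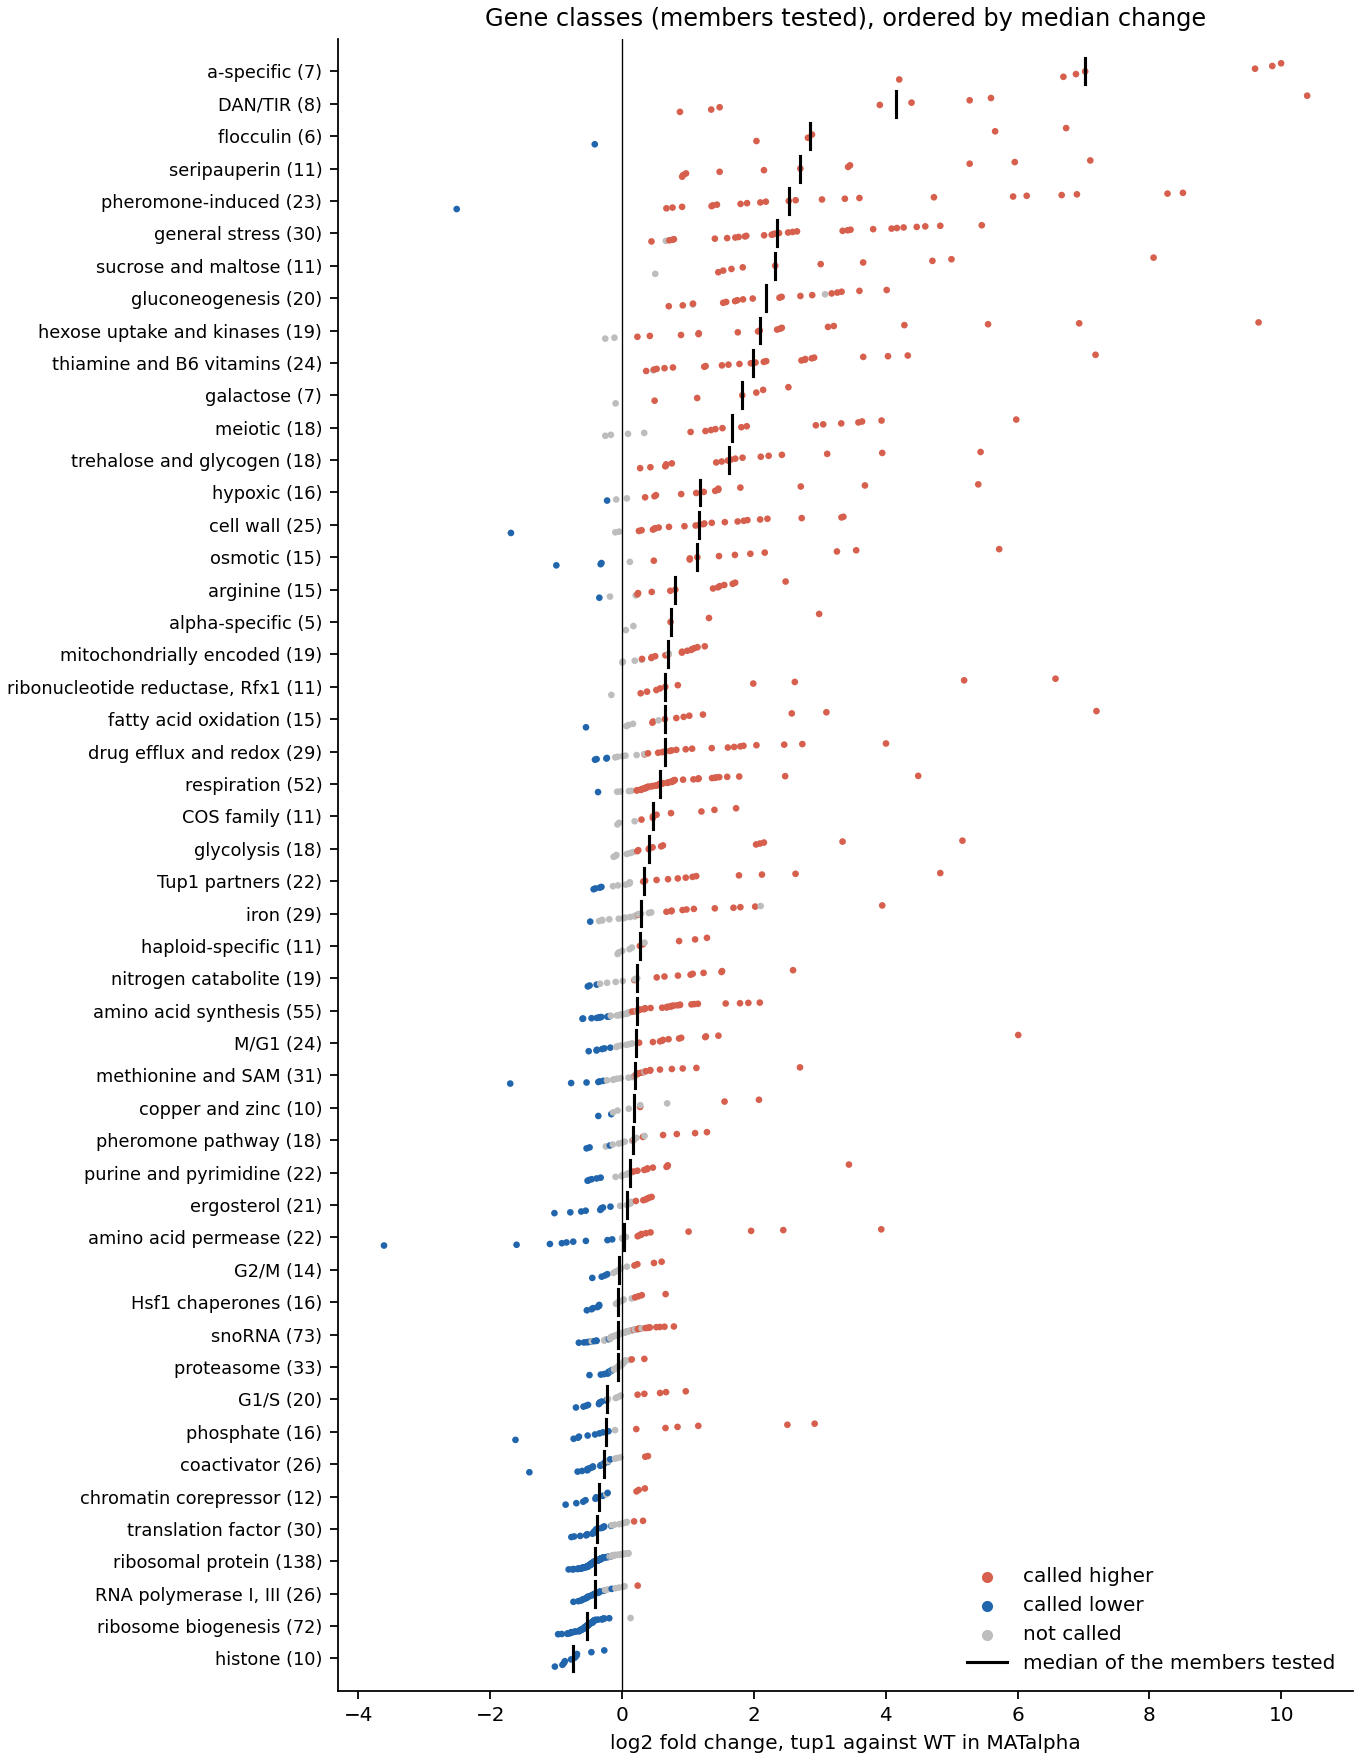
Log2 fold changes of tup1(S649F) against WT in MATalpha for the tested members of the gene classes, 1 point a gene, coloured by call, with a bar at the median; the number of members tested stands in brackets. The classes range from the a-specific genes (median 7.02) down to the histone genes (−0.74). The histone, ribosome biogenesis and ribosomal protein genes stay within about 2-fold of WT, while rising classes reach past 100-fold. Other classes with a negative median reach further, such as phosphate (−1.62 to 2.92) and coactivator (lowest −1.41).

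Of 30 general stress genes 29 rose and 0 fell (median 2.35). HSP12, a small membrane heat shock protein, was at 4.55, 4.21 and 5.63 CPM in WT and 200.1, 212 and 217 CPM in tup1 (5.46 ± 0.10, adjusted p = 1.67e-19). The chaperone HSP26 (4.600), the catalase CTT1 (3.35), the stress protein DDR2 (4.47) and the activator MSN4 (1.59) rose as well. The peroxidase GPX1 was not called (0.66, adjusted p = 0.0742) except without tup1 replicate 2 (adjusted p = 0.0351). CCCCT, the stress response element to which Msn2 and Msn4 bind, stood in 21 of the 30 promoters (70.0%), against 21.8% of all promoters, 32.8% of genes at least 2-fold higher and 15.0% of genes called lower. The medians of the class in tup1 replicates 1 to 3 were 2.52, 2.41 and 2.06 on the scale log2((CPM + 1)/(WT mean + 1)).

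The heat shock chaperones that depend on Hsf1 did not move with the stress genes. Of 16 listed 4 rose and 6 fell (25.0% and 37.5%, median −0.05), near the 32.8% and 31.9% of all genes. SSA1 (0.66) and HSP82 (0.30) were higher, and the constitutive forms SSA2 (−0.44) and HSC82 (−0.46) and the co-chaperone STI1 (−0.53) lower. The higher count was 2 with upper-quartile scaling and 2 without WT replicate 2. Of 15 osmotic stress genes 11 rose and 3 fell (median 1.14). The glycerol importer STL1 was at 0.495, 0.140 and 0 CPM and 11.6, 17.1 and 13.2 CPM (5.72 ± 0.37, adjusted p = 9.07e-11), and HAL1, of salt tolerance, rose by 3.55. The glycerol phosphatase GPP2 rose by 2.16 while its isoform GPP1 fell (−0.32), and CHA1, a serine deaminase, fell (−0.996). Of 29 drug efflux and redox genes 19 rose and 4 fell (median 0.64), led by the enoate reductase OYE3 (4.004), the sulfiredoxin SRX1 (2.74) and the glutathione transferase GTT1 (2.46).

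Respiration genes were higher by a modest amount. Of 52 nuclear genes of the citric acid cycle and respiratory chain 47 rose and 1 fell (median 0.57), and 12 rose at least 2-fold. The external NADH dehydrogenase NDE2 was at 1.88, 1.97 and 1.48 CPM in WT and 43.8, 37.1 and 41.6 CPM in tup1 (4.49 ± 0.16, adjusted p = 4.58e-15), the lactate dehydrogenase CYB2 rose by 2.47 and aconitase ACO1 by 1.78. The member that fell was DLD1, a lactate dehydrogenase (−0.36). Transcripts of the mitochondrial genome rose in 14 of 19 cases and fell in 0 (median 0.70), among them COX1 (1.26 ± 0.06). Their share of the counts was 0.367 ± 0.00326% in WT and 0.656 ± 0.048% in tup1, and that of mitochondrial ribosomal RNA 0.946 ± 0.0223% and 1.32 ± 0.189% (SD, n = 3).

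Vitamin genes were a further class that rose nearly whole. Of 24 genes of thiamine, vitamin B6 and biotin 23 rose and 0 fell (median 1.99). Members near 0 in WT, such as SNO1 and THI5, passed the filter only through the tup1 libraries, so they could only rise. SNO1, which acts with SNZ1 in vitamin B6 synthesis and is divergent from it, was at 0.297, 0.281 and 0.741 CPM in WT and 72.8, 57.5 and 59.98 CPM in tup1 (7.18 ± 0.22, adjusted p = 3.1e-16). SNZ1 was at 25.3, 21.5 and 22.97 CPM and 340.0, 265 and 284 CPM (3.66 ± 0.10, adjusted p = 2.22e-15). THI4, of thiazole synthesis, was at 2.28, 1.82 and 1.33 CPM and 34.5, 44.4 and 34.9 CPM (4.33 ± 0.18, adjusted p = 5.3e-14). THI5, THI11, THI12 and THI13 share reads and are uncertain singly. The class had almost the same median in each tup1 replicate (1.71, 1.73 and 1.66).

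Amino acid synthesis was split. Of 55 genes 30 rose and 10 fell (median 0.23), with HIS5 (2.09), SER3 (1.92), LYS1 (1.79) and HIS4 (1.57) the highest and LEU1 (−0.599) and BAT2 (−0.59) the lowest. TGACTCA, the site of the activator Gcn4, stood in 20 of the 55 promoters (36.4%), against 2.78% of all. Of 15 arginine genes 12 rose and 1 fell (median 0.81). ARG1, argininosuccinate synthetase, was at 45.3, 49.3 and 47.6 CPM and 322, 254 and 218 CPM (2.48 ± 0.15, adjusted p = 1.69e-06), and ARG4 (1.72) and ARG7 (1.55) rose as well, while the regulator ARG81 fell (−0.34). In methionine and S-adenosylmethionine metabolism 14 of 31 genes rose and 6 fell (median 0.19), or 8 and 11 with upper-quartile scaling. The sulfate permease SUL1 rose (2.699 ± 0.27, adjusted p = 2.14e-05). SAM2 (YDR502C, chromosome IV 1453310 to 1454464), which encodes an S-adenosylmethionine synthetase, fell from 417, 429 and 419 CPM to 136, 134 and 121 CPM (−1.696 ± 0.07, adjusted p = 1.7e-14).

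Transporters of amino acids went both ways. Of 22 genes 10 rose and 9 fell (median 0.03). DIP5 (YPL265W, chromosome XVI 41043 to 42869), the permease for dicarboxylic amino acids, fell from 312, 309 and 335 CPM to 24.6, 23.8 and 29.8 CPM (−3.61 ± 0.08, adjusted p = 5.41e-18). The oligopeptide transporter OPT2 fell from 78.6, 86.2 and 84.3 CPM to 22.01, 34.8 and 24.3 CPM (−1.599 ± 0.12) and the ammonium permease MEP2 fell (−1.09), whereas MEP1 rose (1.01). The basic amino acid permease ALP1 was at 2.97, 2.81 and 2.37 CPM and 36.7, 46.5 and 43.03 CPM (3.93 ± 0.15, adjusted p = 1.74e-14), and the proline permease PUT4 (2.45) and AGP2 (1.96) rose. Of 19 genes under nitrogen catabolite repression 10 rose and 3 fell (median 0.23, 5 lower with upper-quartile scaling), with the allantoin permease DAL4 (2.59) and the proline oxidase PUT1 (1.52) higher and the regulators GAT1 (−0.52) and GZF3 (−0.49) lower.

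Iron genes differed between the tup1 libraries, with class medians of 0.07, 0.49 and 0.35 in tup1 replicates 1 to 3 on the scale log2((CPM + 1)/(WT mean + 1)). Of 29 iron genes 12 rose and 1 fell (median 0.29), and without tup1 replicate 1 the count of higher genes was 20. FIT2, a cell wall protein that holds siderophores, was at 16.1, 14.6 and 14.97 CPM in WT and 124, 366 and 215 CPM in tup1, lowest in replicate 1 and highest in replicate 2 (3.95 ± 0.55, adjusted p = 0.00325). FIT3 and the siderophore transporter ARN1 had the same order (186, 536 and 344 CPM and 172, 359.7 and 276 CPM in tup1, 2.02 and 1.69), and FIT3 lost its call when any WT replicate was left out (adjusted p = 0.0565 to 0.0636). The activator AFT1 fell (−0.48 ± 0.07, adjusted p = 1.32e-05). Of 10 copper and zinc genes 3 rose and 2 fell, with the zinc transporter ZRT1 (1.56) and ZPS1 (2.08) higher. The lower count was 1 without WT replicate 2 or 3 or tup1 replicate 1. Of 16 phosphate genes 6 rose and 9 fell (median −0.25): PHO89 (2.51 ± 0.07), a sodium-phosphate transporter, and GIT1 (2.92 ± 0.25), of glycerophosphoinositol uptake, rose, and PHM6 (−1.62 ± 0.12), the polyphosphate gene VTC3 (−0.73) and the activator PHO4 (−0.67) fell. Among 22 purine and pyrimidine genes 10 rose and 5 fell, and ADE17 (3.44 ± 0.07, adjusted p = 1.59e-18), of the last steps of purine synthesis, was the only one of the 22 past 2-fold. Of 21 ergosterol genes 6 rose and 9 fell (28.6% and 42.9%, median 0.07), against 32.8% and 31.9% of all genes, with 10 higher without tup1 replicate 1. The activator ECM22 fell most (−1.02 ± 0.08, adjusted p = 8.1e-10).

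Meiotic genes, which haploid cells keep off, were also higher, with 14 of the 18 that passed the filter rising and 0 falling (median 1.67). Members near 0 in WT, such as IME4 and DMC1, passed the filter only through the tup1 libraries, so they could only rise. IME1, the master regulator of entry into meiosis, was at 2.08, 3.09 and 2.67 CPM in WT and 18.3, 20.6 and 20.1 CPM in tup1 (2.94 ± 0.17, adjusted p = 1.29e-11), and the kinase gene IME2 rose by 1.42. The mRNA methyltransferase gene IME4 had 2 counts over the WT libraries and 117 over the tup1 libraries, a ratio of 76.1 (20.6 to 635.8). The spore wall genes DIT1 (3.59) and SPS100 (3.64, overlapping a noncoding gene on the other strand) and the recombination genes SPO11 (1.35) and DMC1 (1.89) rose. NDT80, the regulator of the middle meiotic genes, and 7 other listed genes had too few counts. The summed level of the class stayed low, at 60.2 to 61.6 CPM in the WT libraries and 224 to 277 CPM in the tup1 libraries.

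Cell cycle genes showed no common direction apart from the histones. Of 24 M/G1 genes 12 rose and 6 fell, led by the cell wall gene PIR3, at 7.13, 8.57 and 8.89 CPM and 524, 554 and 487 CPM (6.01 ± 0.10, adjusted p = 3.5e-20), and including the G1 cyclin CLN3 (1.27). Of 20 G1/S genes 5 rose and 10 fell (median −0.22), such as RAD27 (−0.699) and POL1 (−0.55) of replication. The replication licensing gene CDC6, listed with M/G1, was not called (−0.02, adjusted p = 0.834). Of 14 G2/M genes 4 rose and 4 fell (28.6% each, near the 32.8% and 31.9% of all genes), and 2 were higher without WT replicate 2 or 3. With upper-quartile scaling 2 rose and 7 fell. All 10 histone genes fell (median −0.74). HHF1, a gene for histone H4, was at 224, 231 and 224 CPM in WT and 96.8, 116 and 121 CPM in tup1 (−1.02 ± 0.07, adjusted p = 3.28e-10), lowest in tup1 replicate 1. HTA2 (−0.88), HHT1 (−0.87) and HHF2 (−0.90) followed, and the linker histone HHO1 fell least (−0.27) and lost its call without WT replicate 1 (adjusted p = 0.0598).

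The genes for making protein formed the main falling class. Of 138 ribosomal protein genes 109 fell and 0 rose (median −0.41), none by as much as 2-fold. RPL36A was at 150.0, 157 and 153 CPM in WT and 75.9, 86.1 and 99.9 CPM in tup1 (−0.81 ± 0.08, adjusted p = 4.69e-08), RPS27A at 263, 261 and 265 CPM and 139, 153 and 176 CPM (−0.75 ± 0.07) and RPL31B at 320.3, 313 and 320.2 CPM and 175, 195 and 204 CPM (−0.73 ± 0.07). The groups did not overlap in these genes, and tup1 replicate 1 was the lowest. Duplicated ribosomal protein genes share reads and are uncertain singly. Together the class took 12.1 ± 0.0838% of the counts in WT and 8.56 ± 0.69% in tup1 (SD, n = 3), with 7.86%, 8.58% and 9.24% in tup1 replicates 1 to 3.

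Of 72 ribosome biogenesis genes 71 fell and 0 rose (median −0.53). IMP4, of the small subunit processome, was at 41.9, 39.2 and 44.2 CPM in WT and 18.9, 21.2 and 23.6 CPM in tup1 (−0.97 ± 0.10, adjusted p = 9.79e-08), and the helicase DHR2 (−0.91), RRP9 (−0.83) and UTP4 (−0.83) followed. The promoters of this class held GCGATGAG, known as PAC, in 40 cases (55.6%, against 4.09% of all promoters) and AAAATTT, known as RRPE, in 69 cases (95.8%, against 23.6%). Over all genes tested, 165 of 235 with PAC (70.2%) and 616 of 1329 with RRPE (46.4%) were called lower, against 30.7% and 27.9% of the genes without them. Fewer were at least 2-fold higher, 2.55% with PAC and 13.2% without.

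Subunits of RNA polymerases I and III fell in 19 of 26 cases and rose in 1 (median −0.41), among them RPA34 (−0.66) and RPA43 (−0.605) of polymerase I. Translation factors fell in 21 of 30 cases and rose in 2 (median −0.38). TIF4631, which encodes the scaffold eIF4G, was at 842, 817 and 820.5 CPM in WT and 482, 463 and 511 CPM in tup1 (−0.77 ± 0.07, adjusted p = 4.08e-09). The proteasome genes fell in 10 of 33 cases, near the 31.9% of all genes called lower, and rose in 2 (median −0.06). That lower count was 20 with upper-quartile scaling, 4 with DESeq2, 5 and 6 without WT replicates 2 and 3, and 6 without tup1 replicate 2. Of 73 small nucleolar RNAs 12 rose and 11 fell (16.4% and 15.1%, median −0.06), below the 32.8% and 31.9% of all genes, and 0 differed by 2-fold or more. Under the other settings 4 to 15 were called higher and 5 to 21 lower, with 6 higher without WT replicate 1 and 5 lower without WT replicate 3 or tup1 replicate 3.

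**Figure D4:**
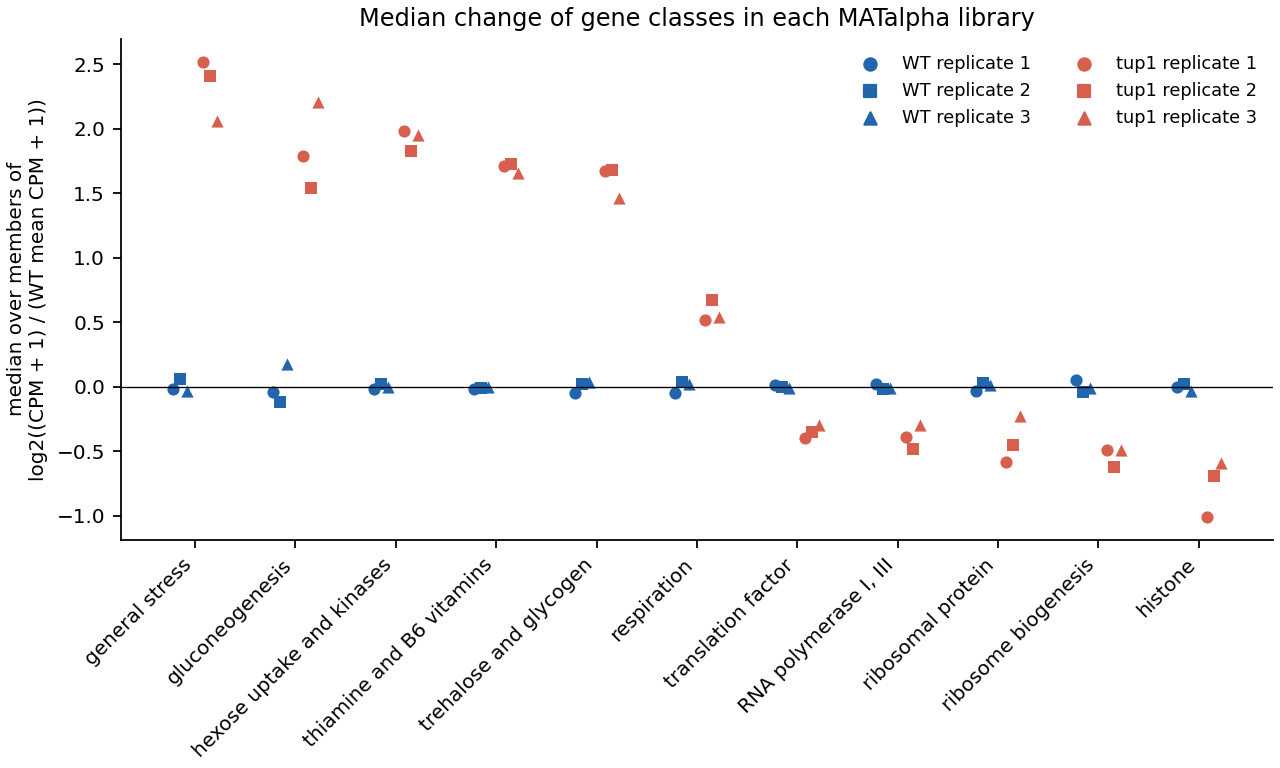
Median over the members of 11 gene classes of log2((CPM + 1)/(WT mean CPM + 1)) in each MATalpha library, WT in blue and tup1 in red, with a symbol for each replicate. Every tup1 library lies above WT in the 6 rising classes (general stress 2.06 to 2.52) and below WT in the 5 falling ones (ribosomal protein −0.58 to −0.23, histone −1.01 to −0.59).

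Few genes fell by 2-fold or more. The 10 largest falls among genes with a mean of at least 1 CPM and groups that did not overlap were those of YHR022C-A, a short reading frame (4.65, 4.35 and 4.30 CPM in WT and 0.183, 0.292 and 0.489 CPM in tup1, −3.704 ± 0.39), DIP5, PGU1, RRT5 (−1.76 ± 0.41), SAM2, UTR2, PHM6, OPT2, the noncoding RUF20 (−1.50 ± 0.28) and SNF11. SNF11, a subunit of the SWI/SNF chromatin remodeller, fell from 23.4, 22.2 and 25.3 CPM to 8.99, 8.92 and 8.80 CPM (−1.41 ± 0.13, adjusted p = 8.73e-09). Of 26 nuclear genes lower by at least 2-fold, 9 (34.6%) lay next to a gene at least 2-fold higher, against 21.9% of all 5574 nuclear genes tested, 14.9% of those called lower and 41.7% of those at least 2-fold higher. UTR2 is 179 bases from CYC7 (2.71), on the other strand. SLI1 (−1.19) is 65 bases from RTA1 (4.82), also on the other strand.

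The series title names a coactivator function for Tup1, and genes of known coactivator complexes were slightly lower. Of 26 genes of SWI/SNF, SAGA, Mediator and FACT 17 fell and 2 rose (median −0.28). SNF11 fell most, SWI3 (−0.67), the SAGA subunit SPT8 (−0.61) and the acetyltransferase GCN5 (−0.53) fell by less, and the Mediator kinase module genes SSN2 (0.39) and SSN8 (0.35) rose, of which SSN8 lost its call under upper-quartile scaling (adjusted p = 0.0861). Of 12 histone deacetylase and remodeller genes that act in repression 8 fell and 3 rose (median −0.34), or 0 rose with upper-quartile scaling, for example ISW1 (−0.69) and HST1 (−0.55). Among Tup1, Cyc8 and 20 DNA-binding partners or relatives, 12 rose and 4 fell (median 0.34). XBP1, a stress-induced repressor, was at 1.78, 2.39 and 2.22 CPM and 59.2, 68.1 and 51.7 CPM (4.83 ± 0.16, adjusted p = 1.77e-15). NRG1 (2.63), a glucose repressor, and the regulators YAP6 (2.12) and CIN5 (1.77) rose, and MCM1 (−0.41) and MOT3 (−0.43) fell. CYC8, the partner of Tup1, was at 178, 168 and 171 CPM and 171, 154 and 146 CPM and was not called (−0.14, adjusted p = 0.0834), but passed as lower under upper-quartile scaling (adjusted p = 0.000998). It also passed without tup1 replicate 1 (adjusted p = 0.00993).

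Position along the chromosome went with the calls near the ends. The outermost 20 kb of the chromosomes held 150 genes tested, of which 82 rose (54.7%) and 26 fell (17.3%), with a median of 0.51, against 1739 (32.1%) and 1763 (32.5%) of the 5424 nuclear genes further in (median −0.04). These 150 include flocculin, seripauperin, COS and hexose transporter genes with copies. The medians of the nuclear chromosomes ran from −0.07 (XIV) to 0.11 (I). Rises of at least 2-fold numbered 272 among the 1406 genes of lowest level and 168 among the 1405 of highest level.

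The effect was set beside that in MATa cells by testing the difference of the effects in a fit of all 12 libraries, where each mating type has WT libraries of its own. Of 5654 genes 1349 differed (23.9%), with the tup1 effect higher in MATalpha for 701 and lower for 648. These counts were 962 and 998 without tup1 MATa replicate 1, a library that differed from the other tup1 MATa libraries with a chi-square per degree of freedom of 21 and 28.3, against 4.08 between those. Differences of at least 2-fold numbered 174 higher and 17 lower, and the lower count was 26 without that library and 31 without tup1 MATalpha replicate 2. All 7 a-specific genes and 22 of 23 pheromone-induced genes had a higher effect in MATalpha. For STE2 the difference was 6.76 (adjusted p = 1.42e-13), and STE2 was not called in MATa (−0.07, adjusted p = 0.664). For FUS1 it was 5.29 (adjusted p = 3.65e-06), with a fall in MATa (−1.91), and for SAG1 2.79 (adjusted p = 1.93e-09). With all 12 libraries scaled together, the STE2 level of tup1 MATalpha, 472 to 701 CPM, overlapped that of WT MATa, 597 to 632 CPM.

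Classes outside mating differed too. Of 15 arginine genes 11 and of 55 amino acid synthesis genes 37 had a higher effect in MATalpha, among them ARG1, which rose in MATalpha and fell in MATa (−2.16, difference 4.64, adjusted p = 3.56e-11). Of 52 respiration genes 36 had a higher effect in MATalpha, and of 72 ribosome biogenesis genes 43 a lower one, as did 9 of 10 histone genes. Of 8 DAN and TIR genes 0, of 6 flocculins 1 and of 11 ribonucleotide reductase and Rfx1 genes 1 differed, lists too short to set apart from the 23.9% of all genes. For RNR3 the difference was 0.10 (adjusted p = 0.687) and for SUC2 0.18 (adjusted p = 0.213), with effects in MATa of 5.09 and 2.15. HO was the reverse, with no call in MATalpha, a rise in MATa (0.91) and a difference of −0.97 (adjusted p = 1.79e-05).

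**Figure D5:**
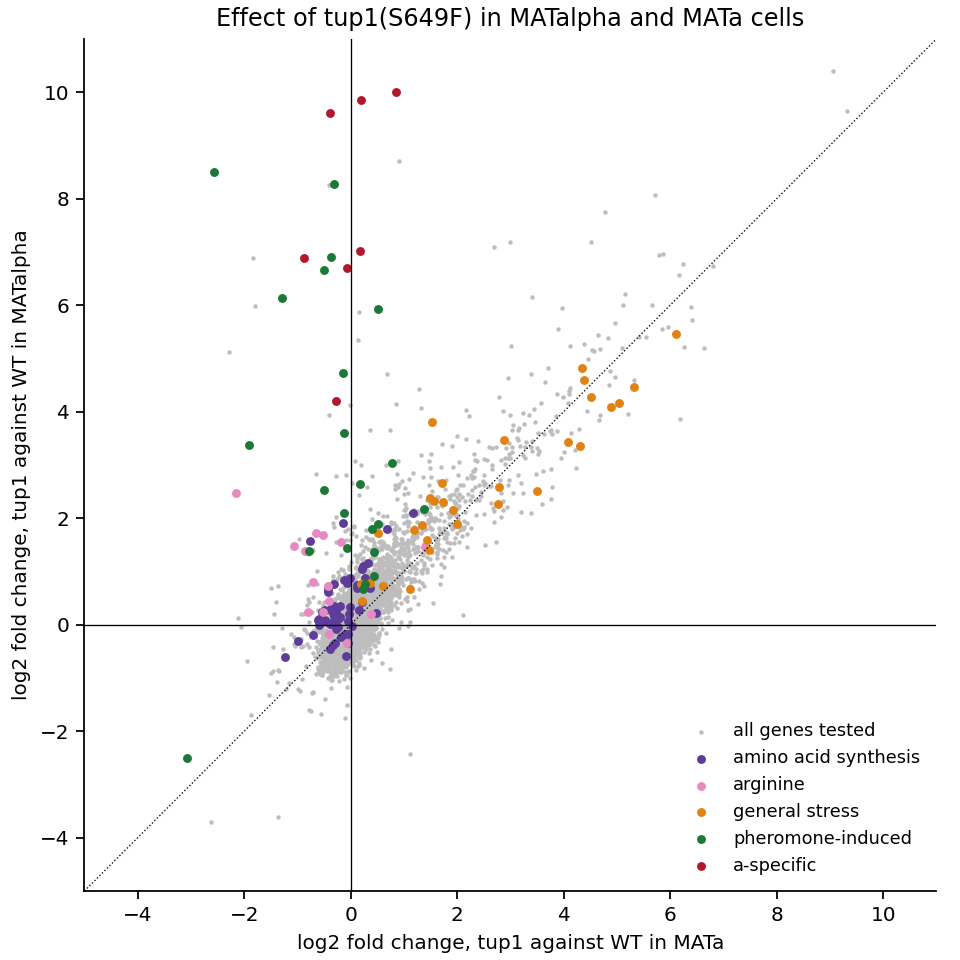
Log2 fold change of tup1(S649F) against WT in MATalpha (vertical, from the 6 MATalpha libraries) against that in MATa (horizontal, from the fit of 12 libraries), 1 point a gene, with 5 classes coloured and a dotted line where both are equal. The a-specific genes and many pheromone-induced genes lie high on the vertical axis near 0 on the horizontal one, whereas general stress genes lie on both sides of the dotted line, 12 of 30 with a called difference.

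The auxotrophic markers of the background were read as a check of the strain pair. HIS3 rose (1.05 ± 0.14, adjusted p = 1.74e-06) and ADE2 rose (0.38), URA3 (−0.50) and LEU2 (−0.31) fell, and TRP1 (0.23, adjusted p = 0.207) and CAN1 (0.004, adjusted p = 0.962) were not called. ADE2 lost its call under upper-quartile scaling (adjusted p = 0.0556).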

How the data were processed

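RNA was measured in 3 libraries of the WT and 3 of the tup1(S649F) MATalpha strain. Per the labels' protocols, stranded paired-end libraries were made from total RNA after removal of ribosomal RNA. The submitters' processing notes name cutadapt 2.8, STAR 2.7.3, featureCounts 1.6.3 of Subread and the builds sacCer3 and R64, with no role or order. The authors deposited raw read counts per gene, 1 column a library. The strand setting of the counting and its treatment of multi-mapping reads are unknown here, so near-identical copies and overlapping genes are uncertain.

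Counts were tested in edgeR 4.0.16 (R 4.3.3) on the 6 libraries, with filterByExpr at a minimum count of 10, TMM scaling and the quasi-likelihood test. A gene near the floor in WT passes this filter only through the tup1 libraries, so its direction is then set beforehand. Besides the genes marked above, this held for others such as POT1, HXT10, MAL32, STL1, SRX1 and DAK2. A gene was called at a Benjamini-Hochberg adjusted p under 0.05, adjusted over all 5621 genes tested. Every fold change is tup1 over WT on the log2 scale, written as value ± standard error where an error is given. The error is the absolute log2 fold change over the square root of the quasi-likelihood F. For genes with almost no counts in WT, such as AGA2, MAL12, SNO1 and STL1, it understates the counting error. CPM are counts over the TMM-scaled library size, and lists of genes are described by counts and medians. The difference between mating types is an interaction term in a fit of all 12 libraries. Of 6219 gene identifiers 5926 matched the RefSeq R64 annotation by identifier, and 276 of the 293 others are tRNAs. Library totals of 5657714 to 9300353 counts set the precision, and intervals and floors cover counting error only. The labels give no batch.

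The lists of genes, their members and the rule for named genes were chosen with earlier results of these data known. The rule names the 10 largest rises and falls without overlap at a mean of at least 1 CPM. It also names up to 4 called members of each list in its main direction and up to 2 in the other, all members of 7 short lists, and 10 single genes. Other genes were named after their values were seen. The alternatives were RLE and upper-quartile scaling, no filter on low counts, DESeq2 1.42.0, a replicate block, leaving out each library and fitting all 12 libraries. In simulated data on 5500 genes, 62, 66 and 63 genes were changed by 0.5, 1 and 2 on the log2 scale, up or down alike. The test found 80.6%, 95.5% and 100% of them, and 8.81% of its calls fell on unchanged genes. In the real data 64.8% of genes were called and large changes were mostly rises, so these rates may not carry over.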

Additional observations from a re-analysis of the deposited data

Results flagged for a closer look

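The effect of tup1(S649F) differed between mating types for 9 genes named here, by the interaction test in the fit of 12 libraries with edgeR, MATalpha minus MATa on the log2 scale. Among the a-specific genes the difference was 6.76 for STE2 (adjusted p = 1.42e-13), 4.48 for STE6 (adjusted p = 3.79e-15) and 7.76 for BAR1 (adjusted p = 1.94e-11). STE6 and BAR1 rose in MATalpha and fell in MATa, with log2 changes of −0.28 and −0.88. For FUS1 the difference was 5.29 (adjusted p = 3.65e-06), and for SAG1, which was not called in MATa (0.20), it was 2.79 (adjusted p = 1.93e-09). ARG1, of arginine synthesis, rose in MATalpha and fell in MATa, a difference of 4.64 (adjusted p = 3.56e-11). HO had the opposite sign, −0.97 (adjusted p = 1.79e-05). GRX3, a glutaredoxin that acts in iron sensing, and BNA2, the entry enzyme of NAD synthesis from tryptophan, rose in MATalpha and were not called in MATa, with differences of 3.07 (adjusted p = 1.59e-08) and 2.15 (adjusted p = 1.52e-05).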

How the results depend on the processing

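No call turned its direction under any alternative, and 3168 to 3624 of the 3640 calls were made again in the same direction. The counts of genes higher and lower were 1889 and 1732 with RLE scaling, 1756 and 1497 with DESeq2, and 1877 and 1841 with the replicate block. With upper-quartile scaling 60 genes were lower by at least 2-fold in place of 27. Leaving out 1 library gave 1689 to 1850 higher, 1511 to 1756 lower and 27 to 40 lower by at least 2-fold. For the difference between mating types, leaving out 1 library gave 570 to 962 higher, 480 to 998 lower and 13 to 31 lower by at least 2-fold. Of 326 named genes tested 22 lost a call under at least 1 alternative and 10 gained one. Upper-quartile scaling lost 15 calls, the most of any setting. Leaving out WT replicate 1, 2 or 3 lost 9, 12 and 10. The cause was not tested. Replicate numbers did not pair the libraries: same-numbered WT and tup1 libraries deviated together with r = 0.0688, 0.111 and 0.0189, and tup1 replicate 3 correlated best with WT replicate 1 (0.0453). With the replicate block MLS1 (adjusted p = 2.72e-09), ICL1 (4.63e-05) and STE12 (0.0446) were called higher, 3 iron genes fell in place of 1, and 1 of the hexose uptake genes fell in place of 0. With 1 strain and 3 libraries a group, differences well under 0.5 on the log2 scale are the least certain, and genes with few counts in WT have wide intervals.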

Other observations

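Some large changes lay outside the lists and were chosen after their values were seen. SGA1, the glucoamylase of sporulating cells, was at 2.08, 2.53 and 3.41 CPM in WT and 147, 183 and 156 CPM in tup1 (5.96 ± 0.14, adjusted p = 3.06e-17). TPO2, a polyamine exporter, was at 9.50, 9.69 and 11.7 CPM and 395, 374 and 347 CPM (5.19 ± 0.09, adjusted p = 1.31e-19). The kinase RCK1 rose by 5.41, the dihydroxyacetone kinase DAK2 by 6.95, the stress-induced membrane protein YRO2 by 4.56 and SHC1, an activator of chitin synthase in sporulation, by 4.16. No WT value of SGA1 or TPO2 reached the tup1 range.

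GRX3 was at 57.8, 55.3 and 53.9 CPM in WT and 486, 329.8 and 339 CPM in tup1 (2.78 ± 0.18, adjusted p = 1.54e-05). BNA2 was at 6.93, 10.4 and 10.7 CPM and 39.2, 28.1 and 30.97 CPM (1.84 ± 0.16, adjusted p = 3.95e-08). Among genes that fell, the mitochondrial mismatch repair gene MSH1 was at 49.4, 45.2 and 47.1 CPM and 18.3, 19.9 and 19.7 CPM (−1.29 ± 0.10, adjusted p = 4.14e-10), and BDF1, a bromodomain protein of the transcription machinery, at 177, 190.3 and 176 CPM and 89.1, 98.7 and 89.8 CPM (−0.97 ± 0.07, adjusted p = 1.57e-10). The identifier tA(AGC)P, an alanine tRNA, had 1 count over the WT libraries and 332 over the tup1 libraries, a ratio of 432 (exact 95% interval 77.0 to 17110). The tRNA identifier tI(AAU)I2 had 0 and 136 counts, at least 58.97-fold higher (floor of 3 counts for the WT group). Both tRNAs have near-identical copies elsewhere, so the source of these reads is uncertain.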
